A study of Mus musculus with 5 samples.

Results

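Leukocytes, sorted as CD45+ cells by FACS, came from the pancreas of each of 5 female mice of 10 weeks, of the strain labelled WT NOD. NOD mice develop an autoimmune diabetes like type 1 diabetes without any treatment. Each mouse was imaged by MRI before its pancreas was taken, gave RNA for 1 array, and has 1 T2 value, a relaxation time that sets the contrast of such images. T2 was 35.3, 35.24, 32.77, 30.02 and 28.98 ms in mice 1 to 5, and the series design asked which transcripts rose or fell with the MRI signal. The mice form 1 group with no treatment and no second strain, and the labels do not say what a high or low T2 stands for. The p-values here are for a slope on T2 across these 5 mice and not for their spread. Their precision is limited by the small number of arrays. The genes described here are the TNF ligand and receptor superfamilies. They were chosen by symbol from GEO's annotation of the platform: each gene whose own symbol starts with Tnfsf or Tnfrsf, without Tnfrsf4, Tnfrsf9 and Tnfrsf18, with Tnf, Fas, Fasl, Cd27, Cd40 and Cd70 added. This gave 32 of 19938 named genes, 12 ligands and 20 receptors, each read by 1 probe set. A probe set shared by Tnfsf12 and Tnfsf13 (TWEAK and APRIL) carries several symbols, so neither gene is a member.

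TNF family ligands are made mostly as trimeric membrane proteins that can be cut off the cell surface, and their receptors carry cysteine-rich repeats outside the cell. Receptors with a cytoplasmic death domain, such as Fas, can start caspases. Many of the others, decoys apart, bind TRAF adaptors and turn on NF-kB and MAP kinases. In lymphoid tissue the family sets the survival of B cells (BAFF and its receptors), the help that T cells give to B cells and dendritic cells (CD40), T cell costimulation (CD27, HVEM) and inflammation (TNF); in islets of NOD mice, TNF and Fas have long been studied as routes of beta cell injury.

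As a check of the sort, Ptprc, which encodes CD45, had a log2 intensity of 11.06 ± 0.10 (SD, n = 5). Array medians lay between log2 4.57 and 4.61. Of lists of cell type markers, all 12 measured B cell genes and all 9 measured T cell genes had a mean log2 intensity of at least 6, the level taken here as expressed, against 0 of 7 fibroblast genes, 1 of 7 endothelial genes (Pecam1, which leukocytes also express) and 5 of 7 acinar genes. In such bulk samples, fewer cells of a type and less RNA per cell cannot be told apart.

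Of the 32 genes, 12 passed the expression level of 6, or 37.5%, where 33.1% of all named genes did. Of the ligands 2 of 12 passed, Tnf and Tnfsf11 (RANKL), and of the receptors 10 of 20. By role, 3 of 4 B cell survival and costimulatory receptors passed (Tnfrsf13b, Tnfrsf13c and Cd40), 2 of 4 T cell costimulatory receptors (Cd27 and Tnfrsf14), 3 of 5 TNF and death receptors (Tnfrsf1a, Tnfrsf1b and Tnfrsf21) and 2 of 7 other and decoy receptors (Tnfrsf22 and Tnfrsf26). Nearest to the limit were Tnfrsf22 at 6.05, just inside, and Tnfrsf25 at 5.78, just outside. No gene with a mean under 6 reached 6 in any mouse. Probe sets differ in how strongly they bind, so a mean under 6 marks low signal on this array and not absence, and levels are not ranked between genes.

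**Figure D1:**
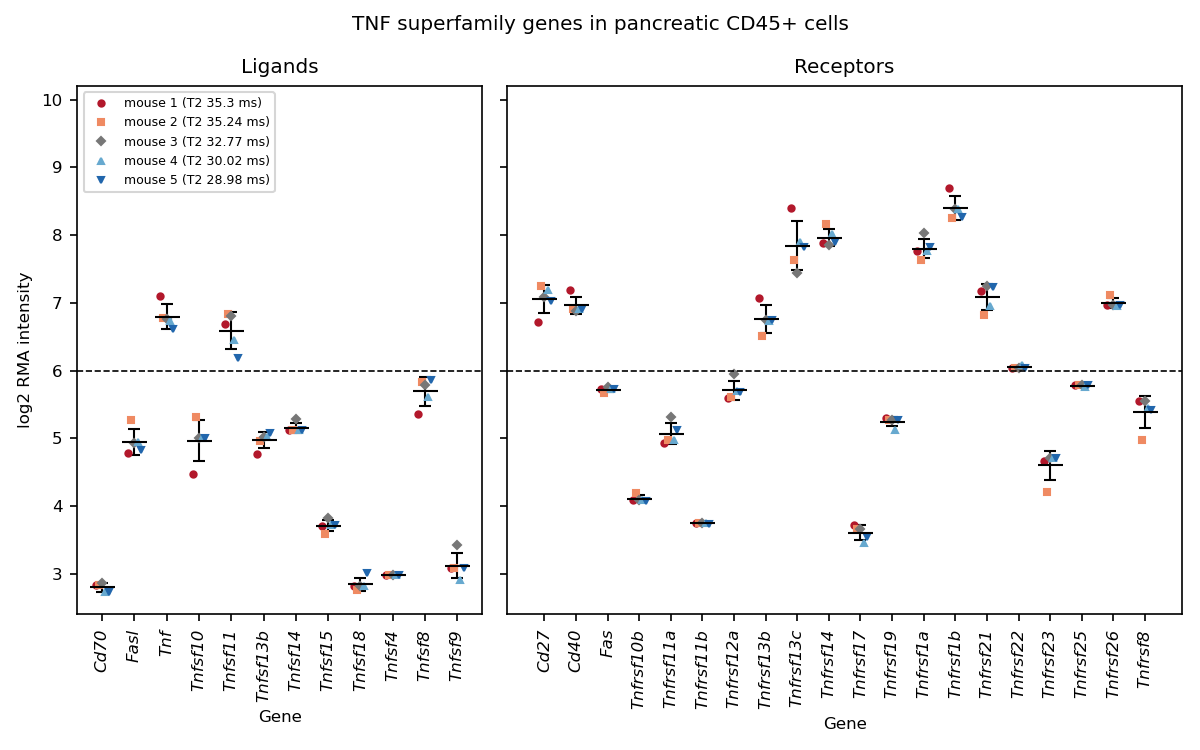
Log2 RMA intensity of each of the 32 genes (x axis; 12 ligands left, 20 receptors right, in alphabetical order) in each of the 5 mice, drawn as points with the mean (bar) and SD (whisker, n = 5); the dashed line is the expression level of 6. Of the ligands, Tnf and Tnfsf11 lie above the line, and of the receptors 10 do; heights should be compared within a gene and not between genes.

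Set out as known ligand and receptor pairs among these genes, 2 of 15 had both partners past the level, and both pairs are of Tnf, with its receptors Tnfrsf1a (TNFR1) and Tnfrsf1b (TNFR2). These counts follow in part from the 2 of 12 ligands and 10 of 20 receptors that passed. In 5 pairs the receptor passed without the ligand paired with it: Cd27 with Cd70, Tnfrsf14 with Tnfsf14, Tnfrsf22 with Tnfsf10, and Tnfrsf13b and Tnfrsf13c with Tnfsf13b. Tnfrsf13b also binds APRIL, which is not among the pairs. The probe set that APRIL shares with TWEAK had a log2 mean of 6.38. In 2 pairs the ligand passed alone, Tnfsf11 with its signalling receptor Tnfrsf11a (RANK) and its soluble decoy Tnfrsf11b (osteoprotegerin). In the other 6, Fasl with Fas, Tnfsf8 with Tnfrsf8, Tnfsf15 with Tnfrsf25, Tnfsf10 with Tnfrsf10b and with Tnfrsf23, and Tnfsf13b with Tnfrsf17, neither did.

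Tnf, the inflammatory cytokine of activated macrophages and T cells, was the more uniform of the expressed ligands. Its intensity (probe set 10450501) was 137, 109.5, 108, 106 and 97.6 in mice 1 to 5, a log2 mean of 6.79 ± 0.18 (SD, n = 5). Mouse 1 was the high mouse and mouse 5 the low, and mice 2, 3 and 4 lay close together between them. Tnfsf11, the RANK ligand that T cells and stromal cells make and that lymph node and osteoclast development need, varied more. It read 103, 115, 111.5, 87.1 and 72.6 in mice 1 to 5 (probe set 10421737), a log2 mean of 6.59 ± 0.28 (SD, n = 5). The 3 mice of higher T2 all lay above the 2 of lower T2. The 250 bases before the start of each of these genes are shown because they were the only ligands past the level, with the TATA box (TATAAA), the GC box (GGGCGG), the ETS core (GGAAGT), the E-box CAGGTG, the kB motif and the octamer ATTTGCAT searched on both strands and matches in capitals. They are RefSeq sequence of GRCm38.p6, 5′ to 3′ on the minus strand, for Tnf at chr17:35202008-35202257 and for Tnfsf11 at chr14:78308044-78308293, and the reference genome is not that of NOD mice.
Tnf: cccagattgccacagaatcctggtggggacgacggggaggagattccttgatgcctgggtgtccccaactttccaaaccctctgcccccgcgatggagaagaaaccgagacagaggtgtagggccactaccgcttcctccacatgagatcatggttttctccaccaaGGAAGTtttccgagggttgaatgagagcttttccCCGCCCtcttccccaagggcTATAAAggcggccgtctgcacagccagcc
Tnfsf11: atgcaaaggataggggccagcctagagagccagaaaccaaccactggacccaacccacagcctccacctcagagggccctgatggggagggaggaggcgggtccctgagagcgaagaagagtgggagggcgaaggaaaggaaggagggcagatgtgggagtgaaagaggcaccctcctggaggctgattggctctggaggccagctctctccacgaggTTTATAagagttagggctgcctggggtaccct
Both hold a TATA box match close to the start, at bases 29 to 24 before it in Tnf and, on the other strand, at bases 32 to 27 in Tnfsf11; of all 32851 promoter windows of this length 12.4% hold one, and of 27 windows of these family genes, from 24 of the 32, 18.5%. Tnf also holds a GC box and an ETS core. Neither holds the kB motif in the form searched, which 1.41% of all windows and 3.7% of the family's do. Other forms of the kB motif were not searched, so their presence in these windows is not known from this search. A match is a run of letters and not a shown binding site, and motifs outside these windows were not searched.

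The 10 ligands under the level had means from 2.80 for Cd70 to 5.69 for Tnfsf8 (CD30 ligand). Tnfsf13b, which encodes BAFF, the survival factor of B cells, had a log2 mean of 4.97 ± 0.12 (SD, n = 5), with its lowest value, 27.3, in mouse 1 and its highest, 33.9, in mouse 5. Fasl, the death ligand of cytotoxic T cells and NK cells, read 27.4, 38.5, 30.4, 30.7 and 28.3 in mice 1 to 5, and Tnfsf10 (TRAIL) 22.3, 39.7, 32.2, 32.2 and 32.2. For both, mouse 2 was highest and mouse 1 lowest. These intensities lie close to the array medians of 23.8 to 24.5, so folds between mice are not given. Tnfsf14 (LIGHT), a ligand of HVEM, had a log2 mean of 5.15 ± 0.076, and Tnfsf15 (TL1A), a ligand of DR3, 3.71 ± 0.083 (SD, n = 5). The ligands of OX40 (Tnfsf4), 4-1BB (Tnfsf9) and GITR (Tnfsf18) and the CD27 ligand Cd70 had means between 2.80 and 3.12, and Tnfsf4 read 7.9 on all 5 arrays. The shared probe set of Tnfsf12 and Tnfsf13 had a log2 mean of 6.38 ± 0.16 (SD, n = 5), which cannot be assigned to either gene.

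The B cell receptors were highest in mouse 1. Tnfrsf13c, the BAFF receptor that keeps mature B cells alive, had the largest spread of the 12 expressed genes. Its intensity (probe set 10430818) was 338, 198, 174, 239 and 226 in mice 1 to 5, 1.94-fold between the highest and the lowest mouse, with an SD of 0.36 on the log2 scale that 4.07% of all genes tested reached. Mouse 1 stood highest, mice 4 and 5 next, and mice 2 and 3 lowest. Tnfrsf13b (TACI), a receptor for BAFF and APRIL that restrains B cells and supports antibody switching, read 135, 91.1, 107.5, 106 and 107.5 in mice 1 to 5 (probe set 10376755). Here mouse 2 was the low mouse and mice 3, 4 and 5 were alike. Cd40, through which T cells help B cells and dendritic cells, read 145 in mouse 1 and between 118 and 120.5 in the other 4, with an equal value on 3 arrays (probe set 10478678). Tnfrsf17 (BCMA), the receptor of plasma cells, was under the level at 3.61 ± 0.11 (SD, n = 5), its intensities between 11.0 and 13.2, while the plasma cell list had 4 of 7 genes past it.

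The mean level of the B cell markers was also highest in mouse 1. The mean of the 12 B cell genes was 9.14, 8.20, 8.27, 8.80 and 8.85 in mice 1 to 5, so that mice 1, 4 and 5 lay above mice 2 and 3, as for Tnfrsf13c. Tnfrsf13b and Cd40 shared the high mouse with the list, but Tnfrsf13b was equal in mice 3 and 5 and Cd40 in mice 2, 4 and 5, between which the list differed. The 5 acinar genes past the level also averaged most in mouse 1 (7.60) and least in mouse 2 (6.68), and so did the 4 plasma cell genes (7.70 and 6.94). The part of these cell types in the receptor values was not tested. The 250 bases before the start of Tnfrsf13c and Tnfrsf13b are shown because these are the BAFF receptor genes past the level, with the same motifs in capitals, from RefSeq's GRCm38.p6, 5′ to 3′: Tnfrsf13c from chr15:82224381-82224630 on the minus strand and Tnfrsf13b from chr11:61126505-61126754 on the plus strand.
Tnfrsf13c: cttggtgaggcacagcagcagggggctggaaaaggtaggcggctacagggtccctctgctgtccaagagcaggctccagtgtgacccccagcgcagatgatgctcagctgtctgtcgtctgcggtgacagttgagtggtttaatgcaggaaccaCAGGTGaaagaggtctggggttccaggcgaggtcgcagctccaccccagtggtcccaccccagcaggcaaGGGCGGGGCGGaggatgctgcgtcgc
Tnfrsf13b: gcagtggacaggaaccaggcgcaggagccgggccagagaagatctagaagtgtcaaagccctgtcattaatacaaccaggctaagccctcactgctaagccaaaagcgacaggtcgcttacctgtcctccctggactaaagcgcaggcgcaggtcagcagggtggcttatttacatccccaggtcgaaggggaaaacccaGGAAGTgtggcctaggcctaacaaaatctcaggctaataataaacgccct
The windows had no motif in common. That of Tnfrsf13c holds 2 GC boxes that overlap by their end bases, at bases 26 to 21 and 21 to 16 before the start, and an E-box at bases 96 to 91, and that of Tnfrsf13b an ETS core at bases 50 to 45. A GC box is in 32.7% of all windows, the ETS core in 19.7% and the E-box in 17.2%. No promoter of Cd40 was shown.

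Both T cell receptors past the level were highest in mouse 2. Cd27, a costimulatory receptor of T cells that other lymphocytes can also carry, read 105, 151, 136, 146 and 130 in mice 1 to 5 (probe set 10547985). This was 1.44-fold between the highest and the lowest mouse. Tnfrsf14 (HVEM), a receptor for LIGHT and BTLA that many leukocytes express, read 235, 286, 232, 258 and 238.5 in mice 1 to 5 (probe set 10519060). Mice 2 and 4 were the higher mice for both genes; mouse 1 was lowest for Cd27 and mouse 3 for Tnfrsf14. The 9 T cell genes averaged 8.27, 8.98, 8.59, 8.61 and 8.44 in mice 1 to 5, and put the mice in the same order as Cd27 and as Fasl. The 5 genes of NK and cytotoxic cells past the level averaged 7.62 in mouse 2 and 6.80 in mouse 1, again the highest and the lowest. The part of T cell content in these values was not tested. Tnfrsf8 (CD30), a receptor of activated lymphocytes, and Tnfrsf25 (DR3), a T cell receptor for TL1A, were under the level at 5.39 ± 0.24 and 5.78 ± 0.0095 (SD, n = 5). Unlike Cd27, Tnfrsf8 was lowest in mouse 2, at an intensity of 31.3 against 42.9 to 46.9 in the others.

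**Figure D2:**
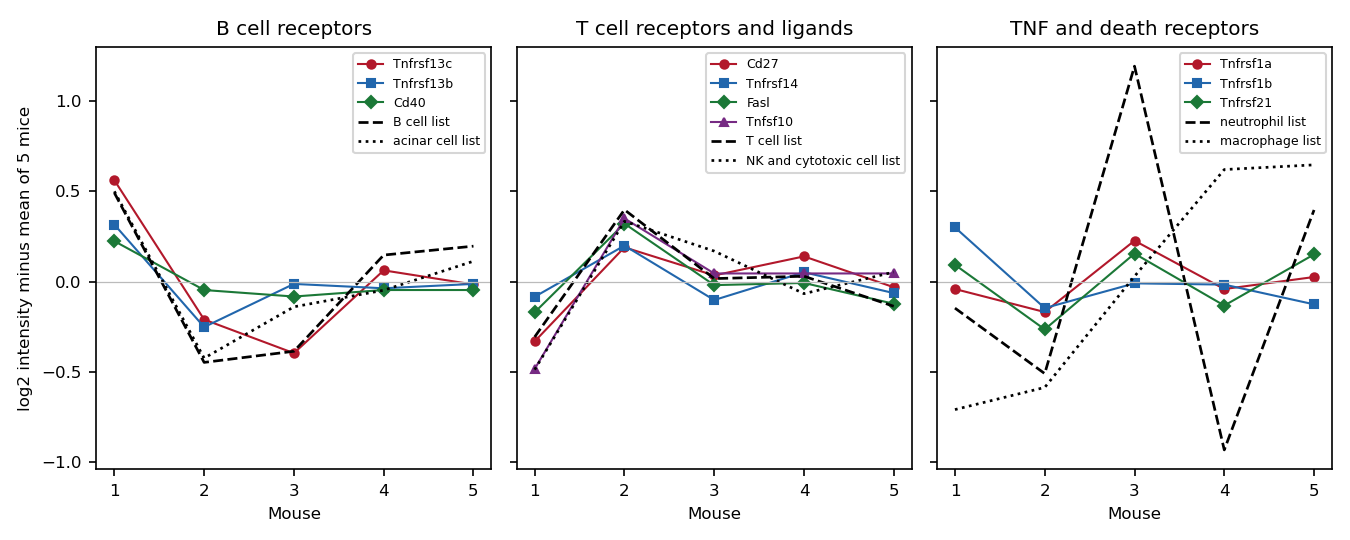
Log2 intensity of each gene (coloured lines) minus its mean over the 5 mice, by mouse, for B cell receptors (left), T cell receptors with the ligands Fasl and Tnfsf10 (middle) and TNF and death receptors (right), with the means of marker lists treated the same way (black dashed and dotted lines). Tnfrsf13c, Tnfrsf13b and Cd40 peak in mouse 1 with the B cell and acinar lists. The genes drawn in the middle panel peak in mouse 2 with the T cell list, but Fasl and Tnfsf10 are under the expression level. Not drawn, and also under it, Tnfrsf8 was lowest in mouse 2 and Tnfsf8 highest in mouse 5. The lines join mice that have no order other than falling T2.

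The TNF receptors differed from each other in their high mouse. Tnfrsf1b, the TNF receptor of lymphocytes and myeloid cells without a death domain, read 414, 304, 334, 333 and 308 in mice 1 to 5 (probe set 10518300). Tnfrsf1a, which carries a death domain and is expressed by most cells, read 216, 198, 261, 216 and 227 in mice 1 to 5 (probe set 10541895). Mouse 1 was highest for Tnfrsf1b and mouse 3 for Tnfrsf1a, and mouse 2 was lowest for both. Tnfrsf21 (DR6), a death domain receptor, read 145, 113, 151, 124 and 151 in mice 1 to 5 (probe set 10445241), and shared the order of mice with Tnfrsf1a apart from a tie. The 5 neutrophil genes past the level had their highest mean in mouse 3, 8.63, and the next in mouse 5, 7.83. Their lowest mean was in mouse 4, 6.50, whereas Tnfrsf1a and Tnfrsf21 were lowest in mouse 2. The macrophage list was highest in mouse 5 and lowest in mouse 1, unlike any of the 3 receptors. The part of neutrophils and macrophages in the values of these receptors was not tested. Fas itself was under the level, with a log2 mean of 5.72 ± 0.034 (SD, n = 5) and intensities between 50.6 and 53.9. The death domain receptor for TRAIL, Tnfrsf10b, was also under it, at 4.11 ± 0.050 (SD, n = 5).

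Tnfrsf22, Tnfrsf23 and Tnfrsf26 lie next to each other on chromosome 7 in the RefSeq gene order and are related in sequence, so probe sets may share signal. Tnfrsf22 and Tnfrsf23 encode TRAIL receptors without a death domain, and Tnfrsf26 an orphan receptor. Tnfrsf26 read 139 in mouse 2 and between 124 and 125.5 in the other 4, and Tnfrsf22 between 65.5 and 67.5 in all 5 (probe sets 10569485 and 10569494), each with an equal value on 3 arrays. Tnfrsf23 was under the level at 4.60 ± 0.22 (SD, n = 5) and was lowest in mouse 2, at 18.5 against 25.4 to 26.2, where Tnfrsf26 was highest. Other runs of neighbours were Tnfsf4, Tnfsf18 and Fasl on chromosome 1, Tnfsf9, Cd70 and Tnfsf14 on chromosome 17, Tnfsf15 and Tnfsf8 on chromosome 4, and Tnfrsf1b and Tnfrsf8 on chromosome 4. In the last pair Tnfrsf1b passed the level and Tnfrsf8 did not; in the 3 ligand runs no gene passed. The remaining receptors, Tnfrsf11a, Tnfrsf11b, Tnfrsf12a (Fn14, the TWEAK receptor) and Tnfrsf19 (TROY), had means between 3.75 and 5.71. Of them Tnfrsf12a and Tnfrsf11a were highest in mouse 3, at intensities of 62.0 and 39.8.

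Over the 12 expressed genes, the median SD was 0.18 on the log2 scale, against 0.11 over the 6603 genes tested, and ran from 0.018 for Tnfrsf22 to 0.36 for Tnfrsf13c. None reached a range of 1 log2 unit, which 2.92% of genes tested did, and 3 of 12 had an equal value on 3 or more arrays, as had 38.2% of genes tested. Such equal values hold the SD down. The highest mouse differed among genes: 5 of 12 were highest in mouse 1 alone (14.8% of genes tested) and 4 in mouse 2 alone (12.3%). Mouse 3 was alone the highest for 2 (10.9%), mouse 4 for 1 (18.0%) and mouse 5 for 0 (34.3%). Mouse 1 was alone the lowest for 1 of 12 (15.9% of genes tested) and mouse 2 for 4 (23.6%). The lowest value was that of mouse 3 for 3 (33.1%), of mouse 4 for 1 (8.53%) and of mouse 5 for 3 (9.75%). No test of these counts was made.

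No gene of the family passed the test for a change with T2. At a limma adjusted p under 0.05, 0 of 12 passed, as did 0.0% of the 6603 genes tested, and the adjusted p of the 12 lay between 0.777 and 1.0. At an unadjusted p under 0.05, 1 of 12 passed (5.29% of genes tested), Tnfsf11, higher at higher T2, where 0.697% of genes tested passed in that direction (46 genes) and 4.59% in the other (303). Tnfsf11 had a slope of 0.083 ± 0.024 log2 per ms (SE, n = 5), which fits a 1.44-fold higher level at the highest T2 than at the lowest (95% interval 1.07 to 1.93; limma adjusted p = 0.777). Over its alternatives that adjusted p ran from 0.354 to 1.0. With T2 reassigned in all 120 possible ways, its exact permutation p was 0.0833 (two-sided; the smallest p possible is 0.00833). Without each mouse in turn its slope stayed between 0.055 and 0.10, but its unadjusted limma p rose to 0.103 without mouse 2, 0.0695 without mouse 4 and 0.156 without mouse 5. With ranks of T2 in place of its values that p was 0.0603. Beside it, the mean of 9 macrophage genes, 7 of them lower at higher T2 at the unadjusted threshold, ran from 7.53 in mouse 1 to 8.88 in mouse 5 and that of 12 dissociation stress genes from 7.77 in mouse 2 to 8.52 in mouse 5, the opposite way, and the 2 regulatory T cell genes past the level from 6.03 in mouse 1 to 6.60 in mouse 2. The mean of 4 mast cell genes, 3 of them lower at higher T2 at the unadjusted threshold, ran from 5.62 in mouse 1 to 6.99 in mouse 5. The part of these lists in the slope of Tnfsf11 was not tested.

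Tnf had the next slope, 0.047 ± 0.021 log2 per ms (SE, n = 5), a fitted fold of 1.23 (95% interval 0.95 to 1.59; limma adjusted p = 0.828; exact permutation p = 0.0583, two-sided). Its order over the mice was that of T2, and the means of the macrophage and mast cell lists had the reverse order. The part of these lists in the slope of Tnf was not tested. Without mouse 1 the slope was 0.022 and without mouse 2 it was 0.069. Its unadjusted limma p was under 0.05 in 3 alternatives, at 0.0262 with arrays renormalized by quantiles, 0.0212 with ranks of T2 and 0.0299 without mouse 2, with adjusted p of 0.792, 0.695 and 0.943. The B cell receptors Tnfrsf13c, Tnfrsf13b and Cd40 had slopes of 0.023 ± 0.062, 0.0097 ± 0.035 and 0.022 ± 0.019, and each turned negative without mouse 1. Cd27 had -0.019 ± 0.035 and Tnfrsf14 0.011 ± 0.022; Cd27 turned positive without mouse 1 and Tnfrsf14 negative without mouse 2. Tnfrsf1a and Tnfrsf21 had -0.015 ± 0.024 and -0.018 ± 0.032, and Tnfrsf1b 0.027 ± 0.028 (SE, n = 5). Tnfrsf1b turned negative without mouse 1, and Tnfrsf1a and Tnfrsf21 positive without mouse 2. Tnfrsf21 also turned positive, at 0.0016, without mouse 5. The intervals of the folds show what 5 mice leave possible: for Tnfrsf13c from 0.52 to 2.38, for Tnfrsf13b from 0.67 to 1.61, and for Tnfrsf22, whose values were nearly equal, from 0.94 to 1.05. The slope of 8 of 12 was positive, against 28.9% of genes tested, with a median of 0.012 against -0.0074. Both counts moved with the settings. With arrays renormalized by quantiles 9 of 12 were positive and so were 56.1% of genes tested, and without mouse 1 7 of 12 were negative, as were 69.2% of genes tested.

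**Figure D3:**
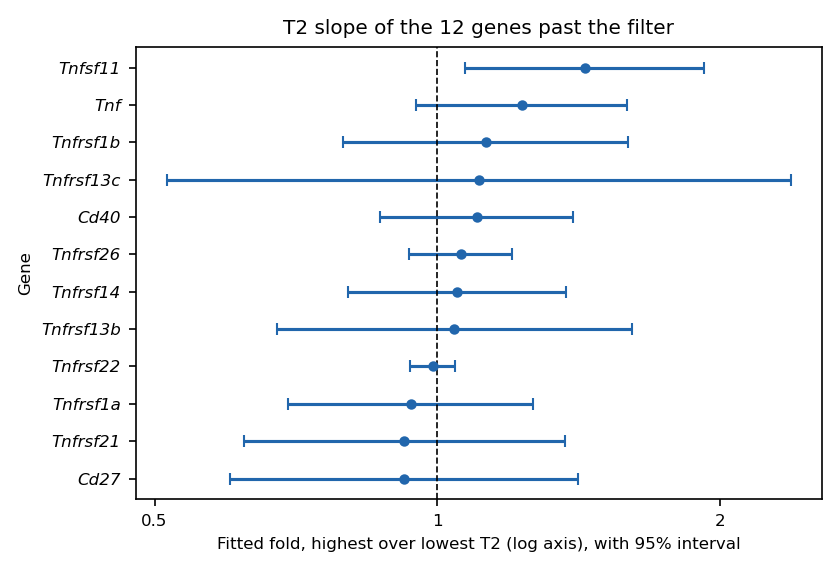
Fitted fold between the highest and the lowest T2 (x axis, log scale) of each of the 12 genes past the expression level, with the 95% interval from limma's moderated fit over 5 mice; the dashed line marks no change. Only the interval of Tnfsf11, 1.07 to 1.93, lies on one side of the line, without correction for the number of genes.

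Mice 1 and 2 had nearly the same T2, 0.06 ms apart, and so show how far these genes differed between 2 mice at nearly one T2. A single pair does not give the spread at that T2. The marker means of mice 1 and 2 also differed, 9.14 and 8.20 for B cells and 8.27 and 8.98 for T cells. The part of cell content in the differences below was not tested. For 10 of 12 genes the difference between these 2 mice was larger than the fitted change over the whole T2 range of 6.32 ms, as it was for 44.6% of genes tested. Tnfrsf13c differed by 0.77 on the log2 scale between them, against a fitted change of 0.15. Tnfrsf13b differed by 0.57 against 0.061, and Tnfrsf1b by 0.45 against 0.17, all 3 higher in mouse 1. Cd27 differed by 0.52 with mouse 2 higher, against a fitted change of -0.12. The exceptions were Tnfsf11, with 0.16 against 0.52, and Tnfrsf22, whose values in the 2 mice were equal.

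**Figure D4:**
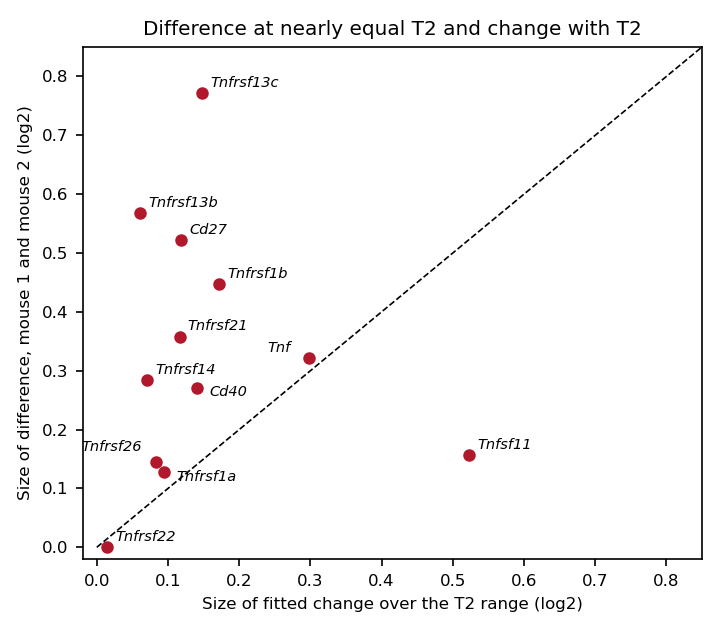
Size of the log2 difference between mouse 1 and mouse 2 (y axis), whose T2 values are 0.06 ms apart, against the size of the fitted log2 change over the T2 range of 6.32 ms (x axis), for the 12 genes past the expression level; the dashed line marks equal sizes. The 10 points above the line include Tnfrsf13c at 0.77, and Tnfsf11 lies below it.

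Of 12 superfamily genes outside the symbol rule, 4 passed the level, or 33.3%, where 33.1% of all named genes did. The 4 were the ligand Ltb and the receptors Tnfrsf4, Tnfrsf18 and Relt. Ltb, whose product forms the membrane lymphotoxin that builds lymphoid tissue, was past the level and nearly constant, at 9.46 ± 0.045 (SD, n = 5), with a slope of 0.00049 ± 0.0086. Its neighbours on chromosome 17 are Tnf and Lta, and Lta was under the level at 5.06 ± 0.033. Cd40lg, the T cell ligand of CD40, was under it too at 5.12 ± 0.20 and was highest in mouse 2, as were Cd27 and the T cell list. Of the T cell costimulatory receptors left out by the rule, Tnfrsf4 (OX40) had a log2 mean of 6.23 ± 0.21 and Tnfrsf18 (GITR) 6.82 ± 0.10, both highest in mouse 2, while Tnfrsf9 (4-1BB) had 5.04 ± 0.065 (SD, n = 5). The slope of Tnfrsf4 was 0.053 ± 0.026 and that of Tnfrsf18 0.014 ± 0.016. Relt, an orphan receptor, passed at 6.30 ± 0.058, and Ltbr, the lymphotoxin beta receptor of stromal and myeloid cells, was just under at 5.93 ± 0.13. Ngfr, Eda, Edar and Eda2r had means between 2.69 and 5.36.

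None of the genes that carry the signal inside the cell passed the adjusted threshold for T2. Of the receptor adaptors and ubiquitin ligases 16 of 17 measured genes passed the level, which 33.1% of all named genes did. Of these 16, 12 had a negative slope, and the median slope was -0.0047. Tnip1, a partner of the NF-kB brake A20, was the 1 gene of all these lists at an unadjusted limma p under 0.05. Its slope was 0.018 ± 0.0057 (SE, n = 5, limma adjusted p = 0.828). Of all genes tested 5.29% passed that unadjusted threshold, 0.697% in the direction of Tnip1, so 1 such gene in these lists is not read as a result. Of the NF-kB and MAP kinase genes 13 of 15 passed the level and 9 had a negative slope. Nfkbia, the inhibitor that NF-kB itself induces, had -0.022 ± 0.011, and Relb, the subunit of the noncanonical route that BAFF receptor and CD40 use, 0.022 ± 0.011. Of the death signalling genes 6 of 8 passed, 4 with a positive slope; Bid, which links death receptors to mitochondria, had 0.029 ± 0.023, and the caspase inhibitor gene Xiap -0.035 ± 0.030. All 4 genes of shedding passed with negative slopes, among them the sheddase gene Adam10 at -0.042 ± 0.021 and Adam17, the TNF-converting enzyme, at -0.013 ± 0.016 (SE, n = 5). Of all genes tested 67.9% had a negative slope. These lists of 4 to 16 genes, with no gene past the adjusted threshold, were not tested as lists.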

How the data were processed

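Deposited values were linear probe-set intensities. The authors made them by RMA with Affymetrix Power Tools (source: the submitters' processing notes); for their versions and for a genome build, the sources used here give nothing. The RMA method subtracts background, quantile normalizes and summarizes probes, and some probe sets have equal values on several arrays. Intensities were turned to log2 here. Of 35556 probe sets 21789 have 1 gene symbol, giving 19938 genes by the set of highest mean, and the 6603 genes with a mean of at least 6 were tested. A linear slope on T2 was estimated per gene by limma 3.58.1 (lmFit, eBayes; R 4.3.3), with 3 residual degrees of freedom, two-sided, with Benjamini-Hochberg adjustment over all genes tested and a threshold of 0.05. The fit was tested on simulated normal values, without the equal values that these arrays hold. That test required high recovery only of its largest slopes, far above those of the family. The labels give no batch. The members and gene lists were chosen with earlier results of these data known. Named are all members, all superfamily genes outside the rule and, of the signalling lists, genes at an unadjusted p under 0.05 or among the lowest p in each direction; Adam17 was added after its values were seen. Alternatives were other filters, normalizations, probe set means, T2 ranks, variance models, array weights, removal of genes with equal values, a threshold of 0.10 and each mouse left out.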

Additional observations from a re-analysis of the deposited data

Results flagged for a closer look

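In 31 of the family's genes (Tnfsf4 had equal values throughout) and 11 marker lists, the gap of the highest or lowest mouse to its nearest neighbour was set against the whole range, with a critical share of 0.71. In 12 genes and 0 lists 1 mouse stood apart. The rate by chance of about 1 in 20 holds for normal values without ties. Of genes tested, 38.2% had an equal value on 3 or more arrays. The share of all genes tested in which 1 mouse stood apart was not computed, so the 12 are not read as an excess. Of these 12 genes, 10 had an equal value on 3 or more arrays, which narrows the range of the other mice. Of the expressed genes, Cd40 was highest in mouse 1 at log2 7.18 against 6.88 to 6.91 (gap share 0.882), Tnfrsf26 highest in mouse 2 at 7.12 against 6.95 to 6.97 (0.889), and Tnfrsf22 highest in mouse 4 at 6.08 against 6.03 to 6.04 (0.907), a difference of little size. Under the expression level, mouse 2 was lowest for Tnfrsf8, at 4.97 against 5.42 to 5.55 (0.78), for Tnfrsf23, at 4.21 against 4.67 to 4.71 (0.911), and for Fas, at 5.66 against 5.73 to 5.75 (0.716), and highest for Tnfrsf10b (0.86). The rest were Tnfrsf11b, lowest in mouse 5 (1.0), Tnfrsf25, lowest in mouse 4 (1.0), Tnfrsf19, lowest in mouse 4 (0.848), Tnfsf14, highest in mouse 3 (1.0), and Tnfsf18, highest in mouse 5 (0.744).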

How the results depend on the processing

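No slope of the family passed the adjusted threshold in any alternative run, at 0.05 or 0.10; the lowest adjusted p was 0.354. The number of expressed genes follows the level chosen by construction: 20 at a level of 5, 6 at 7 and 32 with none. Negative slopes numbered 9 at a level of 5 and 14 with none, and 3 to 7 without each mouse, the 7 without mouse 1. The unadjusted threshold was passed by 0 genes at a level of 7, which leaves out Tnfsf11, 3 with none, 2 with renormalized arrays, and 0 to 2 without each mouse (0 without mouse 4 or 5; without mouse 2, Tnf and Tnfrsf1b passed and Tnfsf11 did not). Of 123 slopes with all mice kept, 3 turned: Tnfrsf13b (-0.010) and Tnfrsf13c (-0.012) with array weights, and Tnfrsf22 (0.0057) with renormalized arrays. Without each mouse 3 genes kept their sign, Tnf (0.022 to 0.069), Tnfrsf26 (0.0013 to 0.023) and Tnfsf11. The slopes of the others crossed 0: Cd27 -0.053 to 0.023, Cd40 -0.0015 to 0.038, Tnfrsf13b -0.033 to 0.050, Tnfrsf13c -0.050 to 0.063, Tnfrsf14 -0.013 to 0.028, Tnfrsf1a -0.024 to 0.0034, Tnfrsf1b -0.0060 to 0.059, Tnfrsf21 -0.040 to 0.012 and Tnfrsf22 -0.0068 to 0.0006. The cause of these turns was not tested. With genes of equal values left out, Cd40, Tnfrsf22 and Tnfrsf26 have no slope. Over all genes tested, the 0 adjusted calls became 3 at a level of 7, 4 with renormalized arrays, 4 with array weights and 35 with genes of equal values left out, none of them a gene of the family. The 5 arrays, and signal under the expression level for 20 of 32 genes, limit precision. No paired analysis was possible because the mice form 1 group.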
